A study of Mus musculus with 17 samples.

Results

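The light-chain segments comprised every row of the raw gene count table whose symbol began with Igkv, Iglv or Iglc. There were 169 such rows among 45777 genes: 162 kappa V segments (Igkv, 102 listed as V segments and 60 as pseudogenes, in 20 families), 3 lambda V segments (Iglv) and 4 lambda constant regions (Iglc). The libraries were made from the left lung of wild-type male C57BL/6 mice that were 6 weeks old on arrival and had a week to acclimatise. They received no irradiation, or 1 focal dose of 65 or 75 Gy to the left lung from an image-guided small-animal irradiator, and tissue was taken 2 or 6 weeks later. The study took RNA from the lesions of irradiated lungs, so that irradiated libraries describe the focus of the beam and not the whole lung. The 17 libraries fell into 6 groups, namely control, 65 Gy and 75 Gy at each time, with 3 libraries in each group except 65 Gy at 6 weeks, which had 2. The labels number the libraries from 3126 to 3143 without naming animals, so that p-values measure the spread between these libraries, which may be technical in part.

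An immunoglobulin light chain is assembled from 1 V segment, 1 J segment and a constant region, which in the mouse come from either the kappa or the lambda locus. Each B cell rearranges its own choice of segments, all cells of 1 clone share that choice, and most mouse antibodies carry kappa. A plasma cell, the antibody-secreting end stage of this lineage, makes far more light-chain mRNA than a resting B cell. V segments in bulk RNA report how much light-chain mRNA a tissue holds and how evenly it is spread over segments. Different clones can use the same V segment, so evenness over clones was not measured here.

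The kappa V rows lay on chromosome 6 between positions 67555636 and 70704177 (GRCm38.p6), upstream of the J segments, of which Igkj1 starts at 70722562, and of the constant region Igkc at 70726435. Of the 160 rows matched to GENCODE, 75 lay on the plus and 85 on the minus strand. The lambda rows lay on chromosome 16 between 19061752 and 19260844. The results turn on 2 pairs of segments, among others, so alike that reads could be counted on the wrong one. The last 300 bases of their spliced coding sequences (GENCODE M21, 5′ to 3′) are shown. Every base that differs within the pair is in capitals, 8 in the first pair and 10 in the second. Iglv1 (chr16:19085017-19085460, minus strand) and Iglv2 (chr16:19260403-19260844, minus strand) were 96.3% identical over the 351 aligned columns of the whole coding sequence, and Igkv1-117 (chr6:68121091-68121825, plus strand) and Igkv1-110 (chr6:68270527-68271265, plus strand) were 97.2% identical over 359.
Iglv1: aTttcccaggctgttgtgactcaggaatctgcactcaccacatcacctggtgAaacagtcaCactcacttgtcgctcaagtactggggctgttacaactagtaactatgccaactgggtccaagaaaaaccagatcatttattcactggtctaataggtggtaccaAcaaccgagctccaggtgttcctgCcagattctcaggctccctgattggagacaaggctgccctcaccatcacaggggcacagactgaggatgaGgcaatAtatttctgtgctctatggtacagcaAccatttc
Iglv2: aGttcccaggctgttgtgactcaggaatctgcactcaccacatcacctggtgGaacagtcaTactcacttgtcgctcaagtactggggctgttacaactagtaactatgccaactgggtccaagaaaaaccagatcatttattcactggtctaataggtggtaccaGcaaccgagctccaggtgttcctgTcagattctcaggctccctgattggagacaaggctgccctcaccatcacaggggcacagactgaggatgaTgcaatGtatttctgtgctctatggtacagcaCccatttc
Igkv1-117: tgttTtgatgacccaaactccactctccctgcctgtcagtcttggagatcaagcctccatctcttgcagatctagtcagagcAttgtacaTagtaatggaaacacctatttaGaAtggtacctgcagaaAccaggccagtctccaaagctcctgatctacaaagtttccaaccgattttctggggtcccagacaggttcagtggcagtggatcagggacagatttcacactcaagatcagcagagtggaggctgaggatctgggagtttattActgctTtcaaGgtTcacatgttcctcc
Igkv1-110: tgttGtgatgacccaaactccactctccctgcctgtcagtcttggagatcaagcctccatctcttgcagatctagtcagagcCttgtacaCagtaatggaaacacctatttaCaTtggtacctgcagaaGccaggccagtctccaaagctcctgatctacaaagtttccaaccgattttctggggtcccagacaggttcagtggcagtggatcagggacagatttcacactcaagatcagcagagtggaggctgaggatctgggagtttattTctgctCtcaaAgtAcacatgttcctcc

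The other 3 segments that took the largest share of an irradiated library at 6 weeks are shown in the same way (the whole 287 bases for Igkv6-13) with capitals on the bases after the codons Tyr, Tyr or Phe, Cys, which open the third complementarity-determining region, the part of the chain that the V segment shares with J. These codons stood within the last 70 bases of 97 of 100 kappa coding sequences. The segments were Igkv4-91 (chr6:68768555-68769103, minus strand), Igkv6-13 (chr6:70457503-70458036, minus strand) and Igkv8-24 (chr6:70216858-70217421, minus strand).
Igkv4-91: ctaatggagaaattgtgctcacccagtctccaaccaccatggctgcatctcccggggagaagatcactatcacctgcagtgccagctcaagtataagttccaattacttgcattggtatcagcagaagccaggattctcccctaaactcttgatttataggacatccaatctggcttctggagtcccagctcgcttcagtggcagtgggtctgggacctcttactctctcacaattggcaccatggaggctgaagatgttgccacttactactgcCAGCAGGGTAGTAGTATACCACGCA
Igkv6-13: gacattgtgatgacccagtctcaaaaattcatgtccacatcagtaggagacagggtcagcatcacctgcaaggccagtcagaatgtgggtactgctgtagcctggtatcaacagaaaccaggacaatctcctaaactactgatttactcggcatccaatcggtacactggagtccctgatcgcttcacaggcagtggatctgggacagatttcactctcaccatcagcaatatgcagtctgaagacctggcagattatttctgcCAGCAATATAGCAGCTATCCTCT
Igkv8-24: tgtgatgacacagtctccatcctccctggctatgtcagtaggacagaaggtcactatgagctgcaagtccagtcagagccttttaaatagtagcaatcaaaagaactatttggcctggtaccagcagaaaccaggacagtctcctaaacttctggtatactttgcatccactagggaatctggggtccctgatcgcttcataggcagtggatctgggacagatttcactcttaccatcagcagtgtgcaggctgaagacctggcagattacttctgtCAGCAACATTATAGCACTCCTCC

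Of the 160 kappa V rows with a transcript, 115 shared no window of 100 bases, the length of 1 read, with another gene, and 28 shared more than 10% of their windows. The segments Igkv4-91, Igkv6-13, Igkv8-24 and Iglc1, Iglc2 and Iglc3 shared none. Igkv1-117 and Igkv1-110 shared 16.1% and 16.2% of their windows, and Iglv1 and Iglv2 shared 1.71% and 2.01%, so that counts of the first pair are less certain. The same holds for other segments named below: Igkv2-137 shared 50.5% of its windows, Igkv4-59 20.4%, Igkv6-25 18.9% and Igkv10-96 12.3%. A rearranged and mutated V segment can also lose reads in alignment, and how the counting treated such reads was not tested.

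The libraries held between 46764569 and 66797879 counts, with a median of 57608149, and counts were scaled to library size as CPM, with TMM factors. At this depth 3 counts, the most that a count of 0 allows, correspond to 0.0449 to 0.0642 CPM. Lung tissue was recovered in every group: the surfactant gene Sftpc lay between 8368 and 18730 CPM, and 1 of 8 lung markers rose and 1 fell after 75 Gy at 6 weeks. At 2 weeks the summed lung markers lay at 36145 to 46279 CPM in the controls. They were lower after 65 Gy, at 28529 to 32466 CPM, and ran from 21301 to 40104 CPM after 75 Gy. At 6 weeks they lay at 33843 to 39172 CPM in the controls, 34866 to 38823 CPM after 65 Gy and 33945 to 39569 CPM after 75 Gy. Of the 169 members, 37, all of them kappa V rows, had 0 counts in every library. The filter on low counts kept 97 members (91 kappa V, 3 Iglv and 3 Iglc), of which 83 reached its cutoff of 0.174 CPM in at least 2 of the 6 control libraries. A member that passed only because its irradiated group was high had to differ, and such members remain in the counts of calls that follow. The first of these counts also stands against 169, which does not remove them. Calls among the 83 alone were not counted. Iglc4, a lambda constant row that did not pass, had at most 7 counts in a library.

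Kappa V mRNA was far more abundant in irradiated lungs at 6 weeks than in any other library. Summed over the 162 rows, kappa V lay at 74.1, 45.3 and 52.5 CPM in the 2-week controls, at 63.7, 137 and 62.0 CPM 2 weeks after 65 Gy and at 63.0, 114 and 53.5 CPM 2 weeks after 75 Gy. At 6 weeks it lay at 168, 76.8 and 68.2 CPM in the controls, at 1412 and 462 CPM after 65 Gy and at 933, 698 and 2354 CPM after 75 Gy. All 5 irradiated 6-week libraries lay above all other libraries. In bulk tissue, more cells of a type and more RNA per cell cannot be told apart.

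The mean kappa V level at 6 weeks was 104 ± 55.1 CPM (SD, n = 3) in the controls, 937 ± 672 CPM (SD, n = 2) after 65 Gy and 1328 ± 896 CPM (SD, n = 3) after 75 Gy, which is 8.997 and 12.7 times the control mean. Single libraries moved these folds: that of 65 Gy was 4.44 without library 3138 and 13.6 without library 3140, and that of 75 Gy was 7.83 without library 3143 and 18.3 without the control library 3135. Without the leading segment of each library the folds were 8.47 and 8.91, and without its 3 leading segments 6.60 and 7.02 (settings added after the data were seen). The members together took 0.0555% to 0.253% of all counts in the irradiated 6-week libraries and 0.00698% to 0.0229% in the others.

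**Figure D1:**
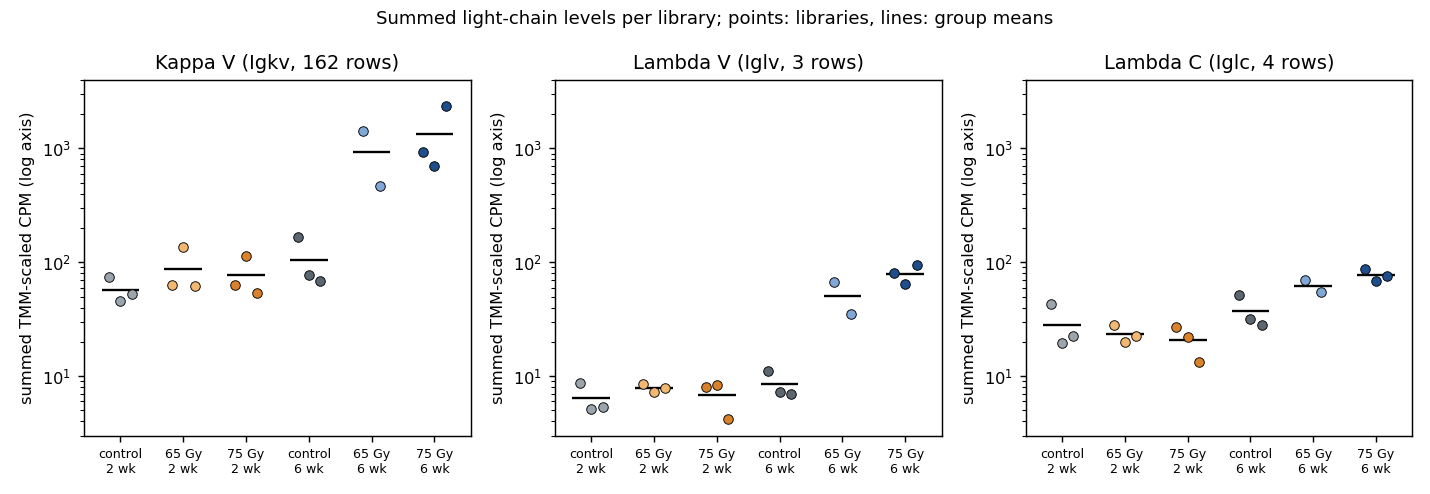
Summed level of the 162 kappa V rows, the 3 lambda V rows and the 4 lambda constant rows per library, in TMM-scaled CPM on a log axis, by dose and time. Points are libraries and lines are group means; kappa V in the 5 irradiated 6-week libraries lies between 462 and 2354 CPM, above the 168 CPM of the highest control, while lambda C lies between 54.98 and 87.4 CPM against at most 52.0 CPM in the controls.

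At 6 weeks after 75 Gy, 59 of the 97 members tested (of 169 in all) rose and 0 fell, by the quasi-likelihood test of edgeR. A call required a Benjamini-Hochberg adjusted p, over 22052 genes, no higher than 0.05 and a log2 fold change of 1 or more in size. Over all genes tested, 10.4% were called in this comparison, and 7.28% were called and higher. The members that rose were 56 of 91 kappa V segments, 2 of 3 Iglv and 1 of 3 Iglc. The median log2 fold change of the members was 2.36, against 0.04 over all genes, and it was above 0 for 90 of the 97. With at least 10 counts in every library as the filter, which fewer than 97 members passed, 38 members were called. With the main filter, the count was 36 without the control library 3137 and 38 without library 3143.

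At 6 weeks after 65 Gy, compared with the same 3 controls and with 1 library fewer, 30 of 97 rose and 0 fell, beside 5.28% of all genes called and 4.34% called and higher. They were 27 kappa V segments, 2 Iglv and 1 Iglc. The median log2 fold change of the members was 1.46 against 0.01 over all genes, and 1.65 when Igkv5-37 and Igkv8-18, at 0 counts in both 65 Gy libraries and with at most 2 and 5 counts in a 6-week control, were left out. The count of calls was 12 without library 3138 and 18 without either of the control libraries 3136 and 3137. Of the 91 kappa V segments tested, 43 had both 65 Gy libraries above all 3 controls and 51 had all 3 of the 75 Gy libraries above them. Of the 125 kappa V rows with any counts, 33 were above all 3 controls in all 5 irradiated libraries, 28 in 4 of them, and 15 in 0. The share of all genes that separated in this way was not computed, so these counts are a description only.

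**Figure D2:**
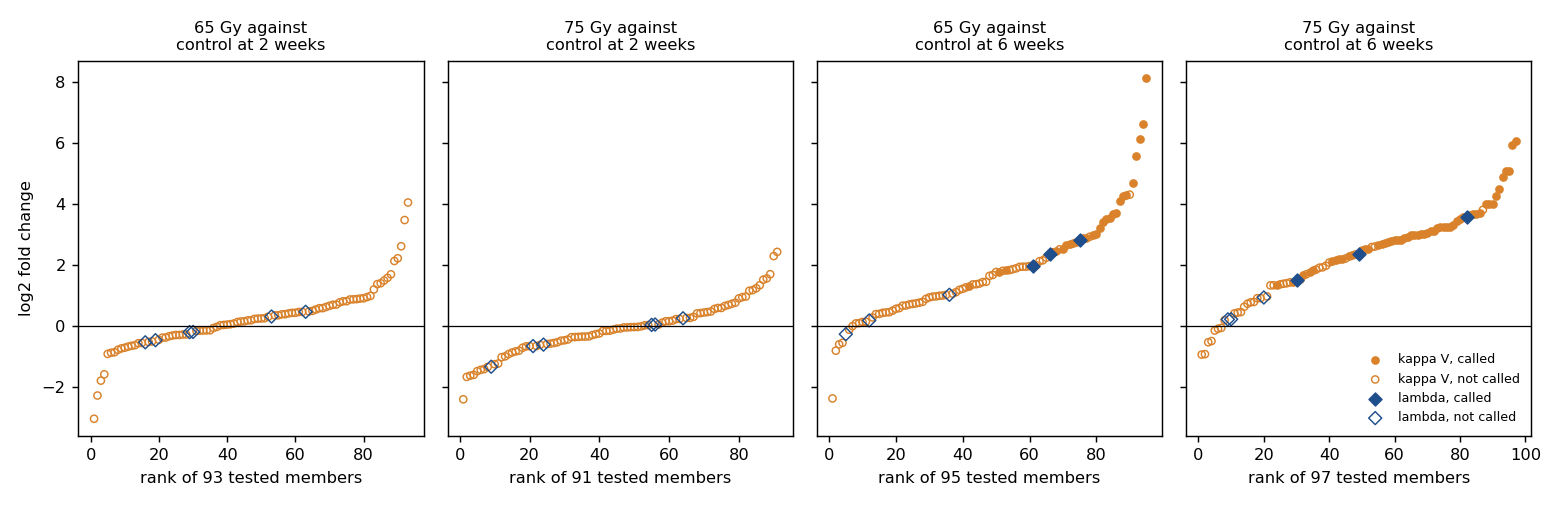
Log2 fold change of irradiated against control libraries of the same time for the tested members, ranked within each comparison; filled symbols are called members, open symbols are not, circles are kappa V and diamonds lambda. Members at 0 counts in every library of a group compared are left out, which leaves 93, 91, 95 and 97; no member is filled at 2 weeks, 30 are at 6 weeks after 65 Gy and 59 after 75 Gy.

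Igkv1-110, one of the 10 segments with the highest mean level, rose after both doses at 6 weeks. It lay at 13.5, 4.23 and 3.77 CPM in the 6-week controls, at 177 and 8.76 CPM after 65 Gy and at 251, 208 and 276 CPM after 75 Gy. All 75 Gy libraries were far above the controls, while 1 of the 65 Gy libraries lay inside their range. Its log2 fold change was 5.09 (SE 0.88, edgeR adjusted p = 0.000552) after 75 Gy and 3.69 (SE 0.86, edgeR adjusted p = 0.0112) after 65 Gy, and the latter was lost without library 3138 (0.29) and without the control library 3136 (3.42, adjusted p = 0.0508).

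Igkv1-117, the close relative of Igkv1-110 shown above, lay at 12.4, 5.05 and 4.42 CPM in the 6-week controls, at 254 and 35.2 CPM after 65 Gy and at 28.4, 84.3 and 1229 CPM after 75 Gy. All irradiated libraries were above all controls, and library 3143 alone was at 1229 CPM. It rose after 75 Gy by a log2 fold change of 5.94 (SE 1.53, edgeR adjusted p = 0.00763), which was 2.96 with an adjusted p of 0.0755 without library 3143. After 65 Gy the log2 fold change of 4.31 (SE 1.47) did not pass, with an edgeR adjusted p of 0.0627.

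Other members of the 10 with the highest mean level rose more evenly. Igkv6-23 lay at 2.35, 3.07 and 1.75 CPM in the 6-week controls, at 9.86 and 7.10 CPM after 65 Gy and at 22.1, 11.5 and 33.0 CPM after 75 Gy, and Igkv10-96 at 2.57 to 4.27 CPM, at 16.5 and 19.8 CPM and at 11.9, 14.7 and 56.2 CPM. For both, every irradiated library was above every control. Their log2 fold changes were 3.22 (SE 0.37) and 3.13 (SE 0.55) after 75 Gy and 1.83 (SE 0.39) and 2.53 (SE 0.57) after 65 Gy, each called by edgeR's quasi-likelihood test. The 65 Gy call of Igkv6-23 was lost without library 3138 (1.58, adjusted p = 0.0749) and that of Igkv10-96 without library 3140 (2.41, adjusted p = 0.0552). Igkv6-15 lay at 2.16 to 4.72 CPM in the controls, at 30.6 and 17.5 CPM after 65 Gy and at 5.69, 21.6 and 45.7 CPM after 75 Gy. It was called at both doses, with log2 fold changes of 2.91 (SE 0.57) after 75 Gy and 2.90 (SE 0.61) after 65 Gy, the second of which was lost without library 3138 (2.45, adjusted p = 0.0664).

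The leading segments of the 65 Gy libraries of 6 weeks differed. Igkv6-13 lay at 315 CPM in library 3138 and at 0.39 CPM in library 3140, the other 65 Gy library of 6 weeks, beside 0.30 to 0.80 CPM in the controls and 3.99, 31.9 and 2.12 CPM after 75 Gy. It was called at both doses, with log2 fold changes of 8.13 (SE 1.71, edgeR adjusted p = 0.00642) after 65 Gy and 4.49 (SE 1.51, edgeR adjusted p = 0.0308) after 75 Gy. The first turned to -0.50 without library 3138. The second was 2.46 and no longer called without library 3142, and the call was also lost without any 1 of the control libraries 3135, 3136 and 3137 (4.52, 4.83 and 4.19). Igkv8-24 was higher in the other of these libraries, at 43.6 CPM in library 3138 and 146 CPM in library 3140, beside 0.71 to 1.33 CPM in the controls and 2.72, 3.29 and 12.5 CPM after 75 Gy. All irradiated libraries were above the controls, and it was called after 65 Gy (6.61, SE 0.74, edgeR adjusted p = 5.84e-05) and after 75 Gy (2.66, SE 0.64, edgeR adjusted p = 0.00532), the latter at 1.65 and still called without library 3143.

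Igkv4-91 was high in 1 library of each 6-week group. It lay at 51.2, 2.09 and 0.45 CPM in the 6-week controls, at 71.0 and 0.70 CPM after 65 Gy and at 315, 3.10 and 6.59 CPM after 75 Gy. The groups overlapped, and it was not called at either dose, with log2 fold changes of 2.59 (SE 1.62, edgeR adjusted p = 0.227) after 75 Gy and 0.9986 (SE 1.69, edgeR adjusted p = 0.747) after 65 Gy. Igkv4-72, of the same family and 84.4% identical, was likewise highest in libraries 3138 (37.6 CPM) and 3141 (48.9 CPM), but lay at only 0.84 to 1.34 CPM in the controls. It was called at both doses, at 4.002 (SE 1.19) after 75 Gy and 4.12 (SE 1.25) after 65 Gy, and was 1.32 without library 3141 and 0.70 without library 3138, neither of them called. Without any 1 of the control libraries 3135, 3136 and 3137 the calls were also lost, at 4.07, 4.13 and 3.83 after 75 Gy and 4.18, 4.25 and 3.94 after 65 Gy, and that of 65 Gy without library 3131 (4.12).

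Several of the largest fold changes among called kappa V segments rested on 1 or 2 libraries. After 75 Gy, Igkv11-125 rose by 6.07 (SE 1.56) on the log2 scale with 13.9 CPM in library 3142 and at most 0.26 CPM in any other library. Without library 3142 it did not pass the filter, so that its call was fixed in part by the filter and is a description only. Igkv4-63 rose by 4.90 (SE 1.25) with 31.2 CPM in library 3143 and at most 1.96 CPM elsewhere, and was 1.85 and not called without it. Igkv9-124 rose by 5.07 (SE 1.13) with 15.2 and 40.0 CPM in libraries 3141 and 3143 and 0.64 CPM in library 3142, and was 3.86 without library 3143. Igkv2-137, named for its share in library 3134, rose by 4.27 (SE 1.33) with 68.1 CPM in library 3143. Its call was lost without that library (0.77) and without the control libraries 3136 (3.95) and 3137 (4.12).

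After 65 Gy, Igkv9-129 rose by 6.11 (SE 1.46) with 20.2 CPM in library 3138 and at most 0.25 CPM in any other library. It turned to -1.45 without it, and was lost without the control libraries 3135 (5.69) and 3136 (6.11). Igkv6-14 rose by 5.57 (SE 0.95) with 31.9 and 3.94 CPM in libraries 3138 and 3140 against 0.24 to 0.54 CPM in the controls, and was 3.40 and still called without library 3138. Igkv12-98 rose by 4.67 (SE 1.21), and the call was lost without library 3138 (0.37), where it stood at 12.7 CPM, and without the control libraries 3136 (4.24) and 3137 (4.602). Igkv1-135, at 166 CPM in library 3138 and 73.9 CPM in library 3143, was called at both doses, at 2.90 (SE 0.99) after 75 Gy and 4.29 (SE 1.09) after 65 Gy. The first was lost without library 3143 (1.41) and without any 1 of the control libraries 3135, 3136 and 3137 (2.88, 3.31 and 2.59). The second turned to -0.46 without library 3138 and was lost without the control libraries 3135 (4.27) and 3137 (3.98).

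Of the other segments that ranked among the first 3 of a library or followed Jchain, Igkv5-48, Igkv14-111 and the Igkv9 segment at chr6:68049983-68050454 were called at both doses, with log2 fold changes of 3.46, 2.83 and 2.54 after 75 Gy and 4.27, 2.77 and 3.52 after 65 Gy. Igkv12-46, Igkv15-103 and Igkv4-59 were called after 75 Gy, at 3.50, 2.99 and 2.74, and were at 1.46, 1.40 and 2.24 after 65 Gy, not called. Igkv4-69 was not called at either dose. The 65 Gy calls of Igkv5-48 (2.20) and Igkv14-111 (1.42) were lost without library 3140, and the latter also without any 1 of the control libraries 3135, 3136 and 3137 (2.96, 2.59 and 2.79). Both calls of the Igkv9 segment were lost without any 1 of these controls (2.56, 2.55 and 2.51 after 75 Gy, 3.54, 3.53 and 3.49 after 65 Gy), that of 75 Gy also without library 3142 (2.24) or 3143 (2.39) and that of 65 Gy without library 3138 (2.35). The 75 Gy call of Igkv15-103 was lost without library 3142 (1.77), and that of Igkv4-59 without library 3141 (1.95) or the control library 3137 (2.43).

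The counts in irradiated 6-week lungs were concentrated on few kappa V segments, and on different ones in different libraries. The effective number of segments (the inverse Simpson index: the number of equally used segments that would give the same concentration) was 8.47 and 8.27 after 65 Gy and 5.18, 8.65 and 3.43 after 75 Gy at 6 weeks. It was 37.7 to 44.2 in the 2-week controls and 44.1, 34.7 and 8.98 in those of 6 weeks. Among the 2-week irradiated libraries it was 35.9, 8.47 and 40.9 after 65 Gy and 32.0, 13.3 and 27.7 after 75 Gy. The groups of 6 weeks therefore overlapped through the control library 3135, and libraries 3130 and 3133 were also concentrated at 2 weeks. Without library 3135 the mean of the 6-week controls was 39.4 instead of 29.3.

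The leading segment took 22.3% and 31.6% of kappa V counts at 6 weeks after 65 Gy and 33.8%, 29.7% and 52.2% after 75 Gy. In the other libraries it took 5.20% to 10.4%, except for 30.5% in the control library 3135, 31.0% in library 3130 (65 Gy, 2 weeks) and 21.7% in library 3133 (75 Gy, 2 weeks). The Wilson 95% intervals of these shares reached at most 1.25 percentage points to either side, and cover counting error only, since reads are not independent molecules. The leader was Igkv6-13 in library 3138, Igkv8-24 in library 3140, Igkv4-91 in library 3141, Igkv1-110 in library 3142 and Igkv1-117 in library 3143, which makes 5 different segments in 5 libraries. Igkv4-91 led in the control library 3135 as well, and Igkv1-117 in libraries 3127, 3129, 3130, 3133 and 3137. Igkv1-110 also led in library 3132 and Igkv8-24 in library 3134, both of 75 Gy at 2 weeks, at 10.4% and 8.39%. With counts divided by exon length the leader of each of the 17 libraries was the same.

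**Figure D3:**
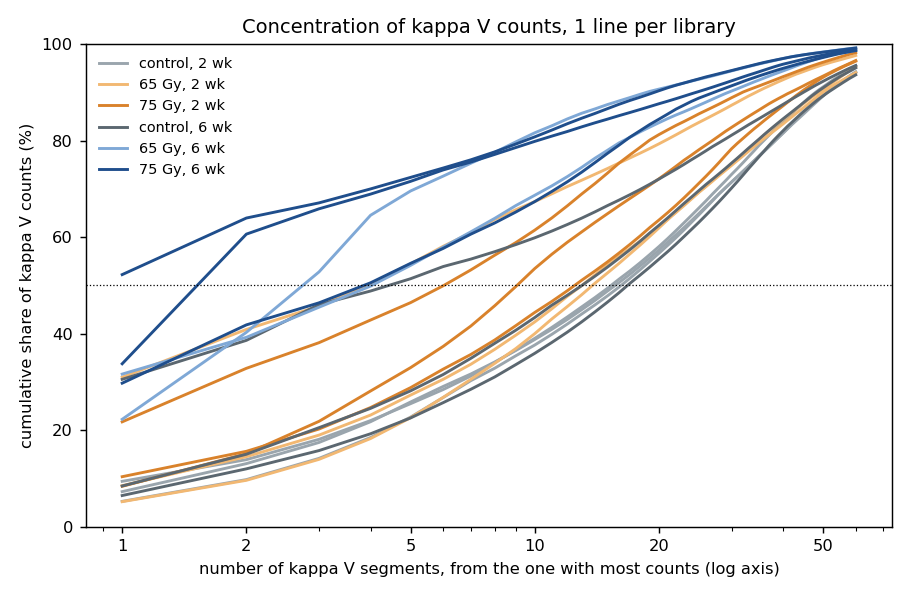
Cumulative share of kappa V counts against the number of segments, taken from the one with most counts on a log axis, with 1 line per library coloured by group. The dotted line marks 50%, which 1 to 5 segments reach in the irradiated 6-week libraries, and 10 to 17 in the others apart from libraries 3130, 3133 and 3135.

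Counts of segments gave a like picture. The segments needed to reach 50% of kappa V counts numbered 3 and 5 after 65 Gy and 2, 4 and 1 after 75 Gy at 6 weeks, beside 5, 14 and 17 in the 6-week controls, 16, 16 and 17 in the 2-week controls, 14, 4 and 14 after 65 Gy and 13, 7 and 10 after 75 Gy at 2 weeks. The number of kappa V rows with at least 1 count was 95 to 102 in the irradiated 6-week libraries and 82 to 102 in the others. Thinned to 2114 kappa V counts, those of the smallest library, it was 69.7 to 77.2 and 79.9 to 94.5, without overlap. Summed over V families, the leading family was Igkv1 in libraries 3138, 3142 and 3143, at 42.6%, 43.9% and 67.7%, Igkv8 in library 3140 at 38.2% and Igkv4 in library 3141 at 46.1%.

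**Figure D4:**
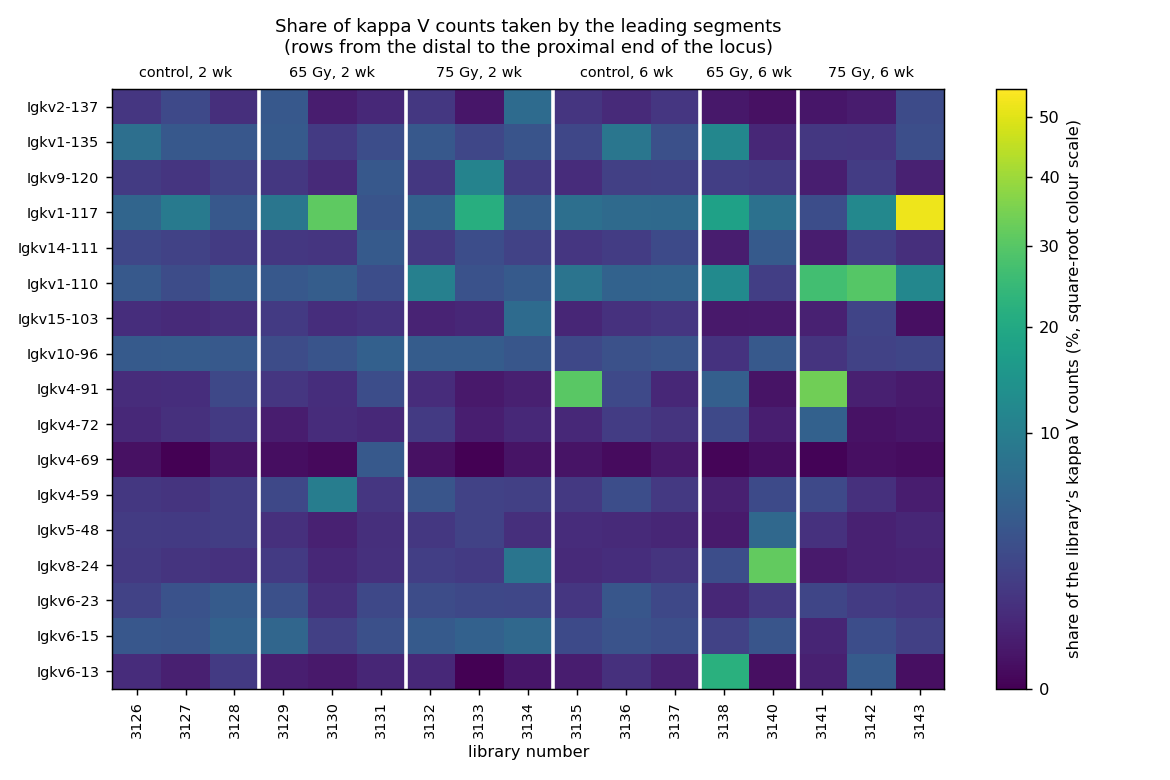
Share of each library's kappa V counts taken by the 17 segments that were among the 3 leading ones of any library, in percent on a square-root colour scale, with segments in the order of their place on the locus and libraries by group. Each irradiated 6-week library has a bright cell of its own, with 52.2% for Igkv1-117 in library 3143 and 33.8% for Igkv4-91 in library 3141, and library 3135 of the controls has one at Igkv4-91 with 30.5%.

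Kappa V use was less shared between irradiated 6-week libraries than between the other libraries. Shared use, the sum over segments of the smaller of 2 libraries' shares, was 78.7% to 82.7% between the 2-week controls and 64.0% to 79.1% between the 6-week controls. It was 32.1% between the 65 Gy libraries of 6 weeks and 34.2% to 51.2% between those of 75 Gy. Over the 10 pairs of irradiated 6-week libraries it ran from 28.7% to 51.2% with a median of 40.2%, and over the 66 pairs of other libraries from 48.3% to 82.7% with a median of 67.0%. Pairs share libraries, and these values are a description without a test. The same segment could still dominate more than 1 library: Igkv1-110 took 26.9%, 29.7% and 11.7% of kappa V counts in the 3 libraries of 75 Gy, 12.5% and 1.89% in those of 65 Gy and 5.51% to 8.07% in the controls.

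Calls were spread over the locus. After 75 Gy at 6 weeks, 25 of 41 tested segments that start before position 69239543, the median of the kappa V rows, rose and 31 of 50 of those nearer to the J segments, and 24 of 35 on the plus strand and 32 of 56 on the minus strand. After 65 Gy these counts were 12 of 41, 15 of 50, 10 of 35 and 17 of 56. By family, 13 of 24 tested Igkv4 segments rose after 75 Gy, 6 of 9 of Igkv6, 5 of 7 of Igkv1, 5 of 9 of Igkv3, 4 of 9 of Igkv8 and 2 of 6 of Igkv12. By counts, the segments farther from J took 47.3% to 68.7% of kappa V in the other libraries, 60.3% and 29.7% at 6 weeks after 65 Gy and 79.5%, 65.0% and 83.6% after 75 Gy. Rows listed as pseudogenes took 0.0922% to 2.87% of kappa V counts in every library, and 1 of 2 that were tested rose after 75 Gy, Igkv14-126, with 1017 counts in library 3143 and at most 98 in any other.

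Lambda V rose with kappa V, and nearly all of the rise was Iglv1, the V segment that joins the constant regions Iglc1 and Iglc3. Iglv1 lay at 7.96, 5.51 and 5.03 CPM in the 6-week controls, at 57.5 and 29.5 CPM after 65 Gy and at 76.3, 58.6 and 87.1 CPM after 75 Gy. Its irradiated libraries were all above its controls and close to each other for a V segment, and it was at 3.27 to 7.29 CPM in the 2-week libraries. It rose by a log2 fold change of 3.58 (SE 0.33, edgeR adjusted p = 4.8e-06) after 75 Gy and 2.82 (SE 0.33, edgeR adjusted p = 0.000101) after 65 Gy, and both calls held without any 1 of the 17 libraries, at 3.46 to 3.81 and 2.27 to 3.23.

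Iglv2, 96.3% identical to Iglv1, lay at 2.09, 1.12 and 1.17 CPM in the 6-week controls, at 1.62 and 4.37 CPM after 65 Gy and at 1.98, 3.41 and 3.05 CPM after 75 Gy. The groups overlapped and it was not called, with log2 fold changes of 0.94 (SE 0.45, edgeR adjusted p = 0.119) after 75 Gy and 1.03 (SE 0.50, edgeR adjusted p = 0.182) after 65 Gy. Iglv3 lay at 1.15, 0.61 and 0.73 CPM in the controls, at 7.45 and 1.23 CPM after 65 Gy and at 1.74, 1.88 and 3.52 CPM after 75 Gy. It was called at 2.38 (SE 0.60, edgeR adjusted p = 0.0163) after 65 Gy, which was lost without library 3138 (0.57) and without the control libraries 3136 (2.20) and 3137 (2.30). After 75 Gy it was called at 1.51 (SE 0.55, edgeR adjusted p = 0.0450), a call lost without any 1 of the 6-week control libraries 3135, 3136 and 3137 (1.82, 1.33 and 1.43), without library 3142 (1.66) or 3143 (1.13), and at an unmoved 1.51 without library 3128, 3129 or 3133. It was also lost when every gene with at least 1 count was tested (1.52, adjusted p = 0.0534). Of the lambda V counts, Iglv1 took 71.1% to 76.1% in the 6-week controls, 84.1% and 86.4% after 65 Gy and 91.7% to 95.3% after 75 Gy.

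**Figure D5:**
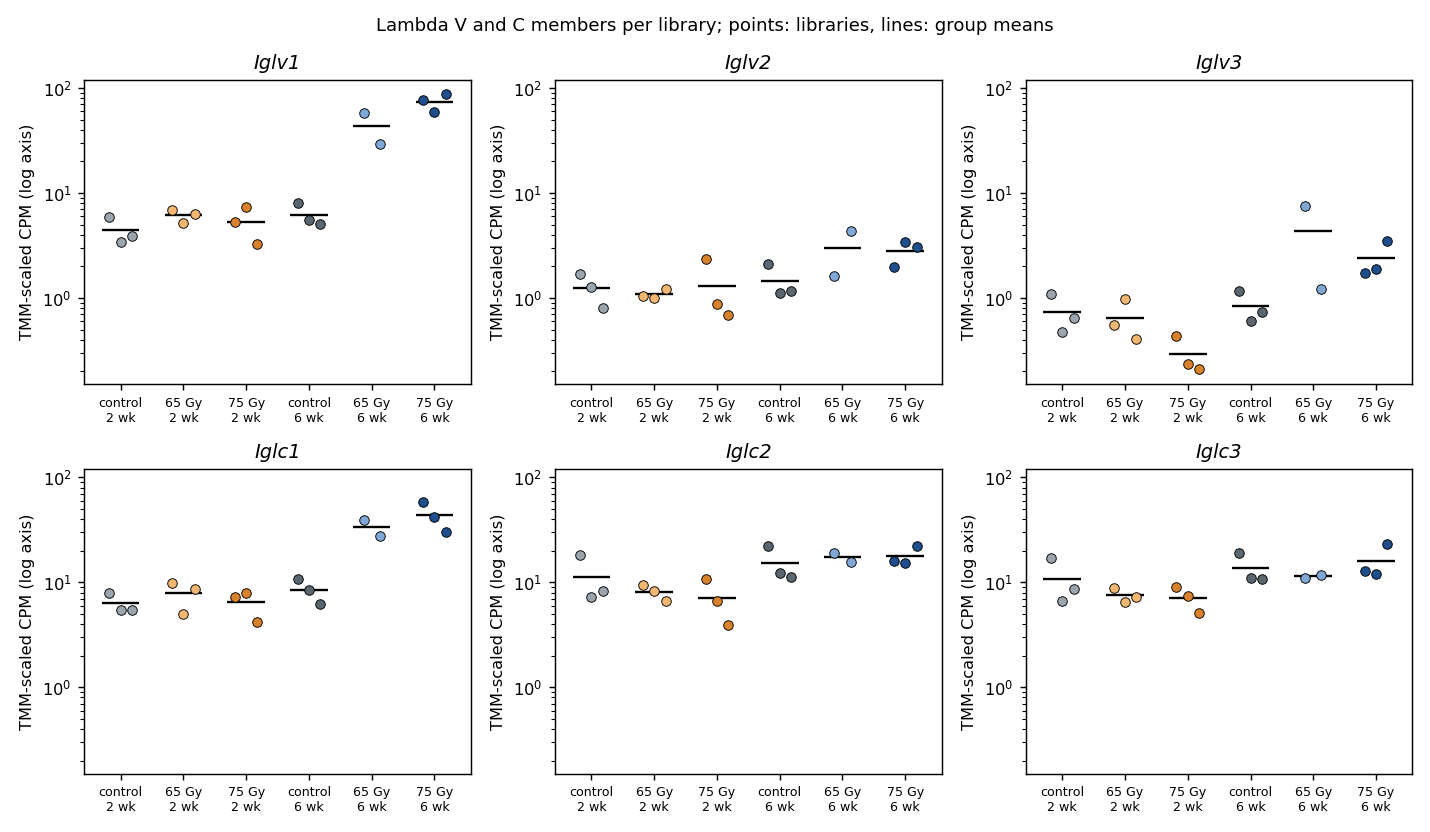
Level of the 3 lambda V segments and of the 3 lambda constant regions that passed the filter, per library in TMM-scaled CPM on a log axis, by dose and time; points are libraries and lines are group means. Iglv1 and Iglc1 lie above all controls in the 5 irradiated 6-week libraries, while Iglc2 and Iglc3 lie within the range of the controls or just above it.

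The lambda constant regions rose less, and among them only Iglc1 was called. Iglc1 lay at 10.7, 8.49 and 6.21 CPM in the 6-week controls, at 39.5 and 27.4 CPM after 65 Gy and at 58.7, 41.8 and 30.0 CPM after 75 Gy, without overlap. It rose by 2.36 (SE 0.32, edgeR adjusted p = 0.0001) after 75 Gy and by 1.98 (SE 0.34, edgeR adjusted p = 0.00178) after 65 Gy. Iglc2, 73.3% identical to Iglc1, lay at 22.1, 12.2 and 11.3 CPM in the controls and at 15.3 to 22.3 CPM in the irradiated libraries. Iglc3, 95.9% identical to Iglc2, lay at 19.2, 10.9 and 10.8 CPM in the controls and at 10.9 to 23.0 CPM in the irradiated libraries. Both overlapped and neither was called, with log2 fold changes of 0.23 (SE 0.37) and 0.22 (SE 0.34) after 75 Gy and 0.19 (SE 0.41) and -0.26 (SE 0.38) after 65 Gy. Iglc1 took 20.6% to 26.9% of lambda constant counts in the 6-week controls, 49.9% and 56.8% after 65 Gy and 39.8% to 67.1% after 75 Gy. Its J segment Iglj1 was called beside it, at 2.40 (SE 0.37) and 2.00 (SE 0.39), and Iglj2 and Iglj3 were not.

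The order of levels per kilobase of exon also changed. In the 6-week controls the means were 30.2 CPM per kilobase for Iglc3, 24.8 for Iglc2, 18.6 for Iglc1, 15.8 for Iglv1, 3.99 for Iglv2 and 2.18 for Iglv3. After 75 Gy they were 189 for Iglv1, 95.8 for Iglc1, 35.3 for Iglc3, 29.1 for Iglc2, 7.69 for Iglv2 and 6.25 for Iglv3, and after 65 Gy 111 for Iglv1, 73.8 for Iglc1, 28.4 for Iglc2 and 25.2 for Iglc3. Iglc2 and Iglc3 were neighbours that differed by less than the spread between libraries in each group. Igkv1-117, at 18.04 CPM per kilobase in the 6-week controls, reached 358 after 65 Gy and 1107 after 75 Gy, with library 3143 as the source of most of the latter.

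The ratio of lambda V to lambda C counts was higher in irradiated 6-week lungs. The ratio of Iglv to Iglc counts was 0.202 to 0.382 in the controls and the 2-week libraries, and 0.957 and 0.639 after 65 Gy and 0.916, 0.925 and 1.24 after 75 Gy at 6 weeks, without overlap. The ratio of kappa V to Igkc counts was 0.596 to 0.812 in the former and 0.684 to 0.903 in the latter. Igkc, the single kappa constant region, lay at 212, 109 and 99.99 CPM in the 6-week controls, at 1564 and 676 CPM after 65 Gy and at 1069, 843 and 2814 CPM after 75 Gy, and was called at both doses (3.49, SE 0.54, and 2.996, SE 0.55).

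The lambda share of V counts, Iglv over Iglv and Igkv, did not separate the groups. It was 6.27%, 8.62% and 9.22% in the 6-week controls, 4.50% and 7.06% after 65 Gy and 7.90%, 8.38% and 3.83% after 75 Gy. In the 2-week libraries it was 9.26% to 10.5% in the controls, 11.8%, 4.995% and 11.3% after 65 Gy and 11.3%, 6.85% and 7.23% after 75 Gy. The 4 lowest shares among all libraries were those of libraries 3143, 3138, 3130 and 3135, which were 4 of the 7 libraries with an effective number of kappa V segments below 10. Measured on constant regions, Iglc over Iglc and Igkc, the lambda share was 19.7% to 22.4% in the 6-week controls, 4.26% and 7.53% after 65 Gy and 7.56%, 7.57% and 2.61% after 75 Gy, without overlap, and 10.3% to 31.7% at 2 weeks. The half-width of the Wilson 95% intervals was at most 1.22 percentage points for V and 1.36 for C.

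At 2 weeks no member was called at either dose by edgeR. After 75 Gy, 0 of 97 were called beside 7.74% of all genes, with 8 members at an unadjusted p under 0.05 and 3 called by DESeq2. After 65 Gy, 0 of 97 were called beside 4.35% of all genes, with 7 at an unadjusted p under 0.05 and 5 called by DESeq2. Shares of all genes refer to the edgeR calls throughout. None is given for DESeq2 or for an unadjusted p, so those counts have no background beside them. Leaving out libraries gave 0 to 2 calls in each comparison, with 2 without library 3143 and library 3131 respectively. The median log2 fold changes were -0.07 and 0.20, against 0.00 and -0.01 over all genes, and -0.08 and 0.22 with members at 0 in a whole group placed at the limit of 3 counts or left out. Single libraries stood out here too: Igkv1-117 lay at 42.4 CPM in library 3130 and 24.8 CPM in library 3133, against 2.21 to 5.42 CPM in the other 2-week libraries, and Igkv4-59 at 13.5 CPM in library 3130 against 0.56 to 2.47 CPM. The same Igkv9 segment lay at 12.7 CPM in library 3133, Igkv15-103 at 3.61 CPM and Igkv2-137 at 3.59 CPM in library 3134, and Igkv4-69 at 2.69 CPM in library 3131. In none of these did every library of an irradiated group lie that high, and none was called.

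Between 2 and 6 weeks, 60 of 97 members rose at 75 Gy and 0 fell, beside 3.16% of all genes called and 2.32% called and higher. They were 55 kappa V segments, 2 Iglv and all 3 of the tested Iglc. The count was 31 without library 3143, 36 without library 3134 and 15 when only the libraries of both groups were fitted. At 65 Gy 15 members rose and 0 fell, beside 0.34% called and 0.254% called and higher, and this count was 3, 4, 5 and 6 without libraries 3130, 3131, 3138 and 3129 and 25 without library 3134. The effect of 75 Gy at 6 weeks exceeded its effect at 2 weeks in 7 members, beside 0.254% of all genes called and 0.213% called and higher, and that of 65 Gy in 0, beside 0.0136%, with 34 members at an unadjusted p under 0.05 and 9 called by DESeq2. In the controls 1 member was called, Igkv4-77, which rose, beside 0.576% of all genes called and 0.24% called and higher. This pseudogene had 0 counts in the 2-week controls and 13, 6 and 10 counts in those of 6 weeks, and its call was lost under DESeq2 and without any 1 of the 6 control libraries or of libraries 3131, 3133, 3138, 3140, 3141, 3142 and 3143. Iglc2 and Iglc3 were called over time at 75 Gy, with log2 fold changes of 1.32 (SE 0.38, edgeR adjusted p = 0.0380) and 1.15 (SE 0.35, edgeR adjusted p = 0.0447), from 3.94 to 10.9 CPM and 5.10 to 8.93 CPM at 2 weeks.

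No member was called between the doses at 6 weeks by edgeR. With 2 libraries of 65 Gy and 3 of 75 Gy, this does not show that the doses were alike. The lowest edgeR adjusted p of a member was 0.123, for Igkv8-24 at a log2 fold change of -3.95 (SE 0.65). Of 97 members, 0 were called beside 0% of all genes, with 31 at an unadjusted p under 0.05 and 3 called by DESeq2, and leaving out libraries gave 0 or 1. The kappa V mean after 75 Gy was 1.42 times that after 65 Gy, less than the spread between libraries of either group, and 1.05 times without the leading segments. For Iglv1 the difference of 75 Gy from 65 Gy was 0.77 on the log2 scale, and for Iglc1 0.38, neither of them called.

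At 6 weeks most heavy-chain constant regions rose beside the light chains, while 0 of 12 mature B cell markers rose. These lists were chosen with earlier results of these data known. Of 7 tested heavy-chain constant regions, 6 rose after 75 Gy at 6 weeks, and 5 rose and 1 fell after 65 Gy. Igha, the constant region of IgA, lay at 52.1 to 103 CPM in the 6-week controls and at 781 to 1930 CPM in the irradiated libraries. Ighm, that of IgM, lay at 730.2, 248 and 253 CPM in the controls, at 3231 and 249 CPM after 65 Gy and at 1878, 816 and 4369 CPM after 75 Gy. Library 3140, with the lowest kappa V level of the irradiated 6-week libraries, was the one where Ighm lay within the range of the controls, and library 3135, the concentrated control, was the one where it was highest among controls. At 2 weeks, when 0 of 97 light-chain members were called, 4 of 7 heavy-chain constant regions rose after 75 Gy (Ighg1, Ighg2b, Ighg2c and Igha) and 1 fell (Ighd), and 4 of 12 mature B cell markers fell. After 65 Gy at 2 weeks 1 of 7 rose (Ighg1) and 0 of 12 mature B cell markers were called. At 6 weeks, the parts of the light chain outside the members rose in 5 of 9 tested cases after 75 Gy and 3 of 9 after 65 Gy.

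Among plasma cell genes outside the immunoglobulins, 4 of 12 rose after 75 Gy (Jchain, Mzb1, Derl3 and Eaf2) and 1 of 12 after 65 Gy (Jchain), and 0 fell. Jchain, which links antibodies into polymers, lay at 64.7, 27.1 and 20.0 CPM in the 6-week controls, at 733 and 309 CPM after 65 Gy and at 532, 446 and 1221 CPM after 75 Gy, and the 5 irradiated libraries stood in the same order by Jchain as by kappa V. It rose by 4.30 (SE 0.66, edgeR adjusted p = 0.000255) and 3.805 (SE 0.68, edgeR adjusted p = 0.00231). The summed level of 12 plasma cell genes was 715 to 789 CPM in the 6-week controls and 1165 to 2161 CPM in the irradiated libraries. Of 12 mature B cell markers 0 rose at either dose. After 75 Gy 3 fell, Pax5 and Fcmr among them, and after 65 Gy 3 fell (Pax5, Bank1 and Fcmr). Their sum was 421 to 750 CPM in the 6-week controls, with library 3135 highest, and 252 to 339 CPM in the irradiated libraries. Their part in the light-chain results was not tested.

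The remaining lists covered regulators and other cell types. Of 11 factors that act on light-chain promoters and enhancers, 0 rose and 1 fell (Ikzf3) after 75 Gy at 6 weeks, and 0 were called after 65 Gy. Of 5 tested genes of the surrogate light chain and of V(D)J recombination 0 were called, and Rag2, which cuts the segments for joining, was at most at 0.0890 CPM. Germinal centre markers rose in 2 of 7 cases (Gcsam and Mybl1) after 75 Gy and 1 of 7 (Gcsam) after 65 Gy. Of 7 lymph node and lymphoid stroma markers, 4 rose after 75 Gy (Ccl19, Cxcl13, Madcam1 and Glycam1) and 3 after 65 Gy (Cxcl13, Madcam1 and Glycam1), the last of them at 0.49 to 2.11 CPM in the irradiated 6-week libraries and at 0 counts in all others. T cell markers rose in 3 of 8 cases (Cd3d, Cd3g and Cd4) and 2 of 8 cases (Cd4 and Cd5), and 0 of 4 tested thymocyte markers were called. The part of these markers in the light-chain results was not tested.

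By rank over the 17 libraries, the kappa V segments most like Jchain were Igkv1-110 (Spearman's rho 0.89), Igkv4-59 (0.87) and Igkv12-46 (0.86), and over the 12 libraries other than the irradiated ones of 6 weeks these values were 0.73, 0.83 and 0.71. Iglv1 stood at 0.84 over the 17 libraries and 0.57 over the 12. With the summed mature B cell markers, Iglc2 and Iglc3 stood at 0.60 and 0.63 over the 17 libraries, beside 0.52 and 0.48 with Jchain. Over the 12 they stood at 0.83 and 0.80, beside 0.01 and 0.02 with Jchain. The other tested lambda members stood at 0.31 (Iglv1), 0.41 (Iglv2), 0.76 (Iglv3) and 0.52 (Iglc1) with the B cell markers over the 12. These are descriptions over libraries that share their groups, depth and scaling, and no p is given.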

How the data were processed

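The authors prepared stranded poly(A) mRNA libraries, cleaned read pairs with Trimmomatic, placed them on GRCm38.p6 using HISAT2, and used StringTie for transcripts. The deposited table holds whole-number counts per gene, not normalized, and how they were drawn from StringTie is not given in the sources used here. Counts were tested with edgeR 4.0.16 (R 4.3.3): filterByExpr (minimum count 10, minimum total 15), TMM factors and the quasi-likelihood test in 1 fit of all 17 libraries, with Benjamini-Hochberg adjustment over the 22052 of 45777 genes kept. A gene was called with an adjusted p no higher than 0.05 and a log2 fold change of 1 or more in size, and SEs were derived from the F statistic. Usage was computed with pandas 2.3.3 and scipy 1.17.1 in Python 3.11.15. The members and lists were chosen with earlier results of these data known. Segments named were all lambda members, the 10 kappa V segments with the highest mean, the 5 with the largest fold change among those called in each comparison with controls, the 3 leading ones of each library, the 3 most like Jchain, and the called genes of the lists, of which not all are reported here. Exceptions are said to be chosen after their values were seen. Alternatives were other scaling, filters, call rules and samples, DESeq2 1.42.0, and each library left out. The fits were tested on simulated data.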

Additional observations from a re-analysis of the deposited data

Results flagged for a closer look

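The effect of 75 Gy at 6 weeks differed from its effect at 2 weeks in 7 members by edgeR's quasi-likelihood test of the difference itself, with Benjamini-Hochberg adjustment, and each was larger at 6 weeks. For Iglv1 the difference of the log2 fold changes was 3.32 (SE 0.44, edgeR adjusted p = 0.00685), and it held in each alternative tried. For Igkv6-23 it was 3.05 (SE 0.52, edgeR adjusted p = 0.0200), and the call was lost without library 3135 (3.04) or 3143 (2.67) and with only the 4 groups in the fit (3.05). For Iglc1 it was 2.32 (SE 0.44, edgeR adjusted p = 0.0403). That call was lost with only the 4 groups in the fit (2.32) and without any 1 of libraries 3126, 3127, 3128, 3131, 3134, 3135, 3136, 3137, 3138, 3140, 3141 and 3142, at 2.03 to 2.52.

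The other 4 were outside the rule for named segments and were chosen after their values were seen. Igkv8-30 differed by 4.14 (SE 0.65, edgeR adjusted p = 0.0133), with 40, 41 and 53 counts in the 6-week controls and 261, 433 and 856 after 75 Gy. Igkv16-104 differed by 4.25 (SE 0.68, edgeR adjusted p = 0.0152), with 73, 47 and 42 counts and 295, 793 and 419. Igkv6-25 differed by 3.83 (SE 0.74, edgeR adjusted p = 0.0407), with 80, 66 and 46 counts and 479, 849 and 526. Igkv1-122 differed by 4.80 (SE 0.95, edgeR adjusted p = 0.0498), with 34, 9 and 9 counts and 151, 209 and 437. In each of these the 75 Gy libraries of 6 weeks lay above the controls of that time. At 2 weeks their log2 fold changes after 75 Gy were below 0, at -0.57, -0.98, -0.52 and -0.80 in the same order, none called, which adds to each difference. Whether these 4 calls held in the alternatives was not examined.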

How the results depend on the processing

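The counts of members called at 6 weeks kept their direction in every alternative. With at least 10 counts in every library, which fewer than 97 members reached, 38 were called after 75 Gy. With only the libraries of the groups compared, 1 member was called at 2 weeks after 75 Gy and 1 after 65 Gy, 15 rose over time at 75 Gy, 27 at 65 Gy and 0 in the controls, and the effect of 65 Gy differed between times in 1. DESeq2 called 3 and 5 at 2 weeks after 75 and 65 Gy, 3 between doses, 30 over time at 65 Gy, 0 in the controls, and 23 and 9 for the difference between times of 75 and 65 Gy. For the alternatives in this paragraph no share over all genes is given beside the counts. With every gene of at least 1 count, the controls gave 0 over time and the 65 Gy difference 1, and with at least 10 counts the controls gave 0. Leaving out 1 library gave 0 to 2 calls at 2 weeks for each dose, 36 to 60 and 12 to 32 at 6 weeks for 75 and 65 Gy, 0 to 1 between doses, 31 to 60, 3 to 25 and 0 to 1 over time for 75 Gy, 65 Gy and controls, and 3 to 10 and 0 to 2 for the differences of 75 and 65 Gy between times. Of the calls of named members at 6 weeks, 36 of 563 checks after 75 Gy lost the call and 0 turned, and after 65 Gy 29 of 420 lost it and 3 turned, all without library 3138: Igkv1-135 (-0.46), Igkv6-13 (-0.50) and Igkv9-129 (-1.45), whose highest values without 1 library were 5.28, 9.14 and 7.12. For 5 calls DESeq2 gave no adjusted p.

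The effective number of V families was 10.3, 8.06 and 8.78 at 2 weeks (control, 65 and 75 Gy), 8.17 in the 6-week controls and 4.42 at 6 weeks after 65 Gy. In the 75 Gy libraries of 6 weeks it was 3.11, 4.38 and 2.14, and 4.84 in the control library 3135. The exponential of the Shannon entropy over segments was 55.4 (control) and 38.8 (75 Gy) at 2 weeks and 18.5 and 14.5 at 6 weeks after 65 and 75 Gy. The 6-week control libraries 3135, 3136 and 3137 stood at 27.5, 51.2 and 58.6. Libraries 3129, 3130 and 3131 (65 Gy, 2 weeks) stood at 52.8, 22.9 and 53.9. The leading family took 17.7% (control) and 21.4% (75 Gy) at 2 weeks and 40.4% and 52.6% at 6 weeks after 65 and 75 Gy. In the 6-week control libraries 3135, 3136 and 3137 it took 38.9%, 21.6% and 16.3%, and in libraries 3129, 3130 and 3131 18.8%, 37.9% and 19.7%. The lambda share by constant rows was 25.8%, 18.3% and 16.7% at 2 weeks and 21.4% in the 6-week controls.

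No paired analysis was possible because no replicate number occurs in more than 1 group. With 2 or 3 libraries a group, and 2 after 65 Gy at 6 weeks, single libraries weigh heavily, and a group left with 1 library is assumed to vary like the others. Depth limits rare segments: 37 kappa V rows had 0 counts in every library. Whether libraries come from separate animals is not given in the labels.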

Other observations

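The kappa J segments, short rows that were not members, also differed between libraries of 1 group. Igkj2 lay at 19.4 CPM in library 3138 and at 0.137 CPM in library 3140, the other 65 Gy library of 6 weeks, and at 21.4, 8.40 and 48.8 CPM after 75 Gy. It took 0.842% of Igkj counts in library 3140 and 32.5% to 71.3% after 75 Gy. Igkj4 lay at 7.85 CPM in library 3143 and at 0.137 to 0.297 CPM in the other 4 irradiated libraries of 6 weeks. These are values without a test.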
